A study of Mus musculus with 10 samples.

Results

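Serpins are a family of proteins that mostly inhibit serine proteases: the protease cuts an exposed loop of the serpin, the serpin then changes shape, and the protease is held in an inactive complex. In the mouse, genes of the Serpina3 group lie side by side and are close copies of each other, and genes of the Serpinb group code for serpins that mostly stay inside the cell. In macrophages and other leukocytes, serpins of both groups are known as inhibitors of proteases from granules and lysosomes. RNA-seq of mouse peritoneal macrophages is described here for 8 of these genes, Serpina3f, Serpina3g, Serpina3n, Serpinb1a, Serpinb2, Serpinb6a, Serpinb8 and Serpinb9, out of 37 serpin genes considered among 29700 rows of the count table that are not circular RNAs. The genes were taken by name. Serpina3f was chosen by its measured rise between the 2 groups compared here, so its values are given as a description with no test.

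The study compared 5 control libraries with 5 ox-LDL libraries of bulk RNA from cells of C57BL/6 mice aged 8 weeks, with no genotype other than wild type. Cells were recruited into the peritoneum by thioglycollate and collected at day 3, so that both groups hold elicited macrophages, and these were cultured as collected, without a sort that the labels mention. The control cells are labelled as untreated, and the ox-LDL cells received 100 ng/ml of LPS, a bacterial lipopolysaccharide, before 16 h with 100 µg/ml of ox-LDL, the oxidized form of low-density lipoprotein. A difference between the groups by these labels contains LPS and ox-LDL together, which cannot be told apart, and the study's own text can also be read as LPS for both groups. In bulk RNA, fewer cells that make a transcript and less of it per cell cannot be told apart either.

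Library totals were between 20094647 and 20687289 counts in the controls and between 19257131 and 20358017 in the ox-LDL group. Counts were scaled by TMM, a method that sets library sizes by the bulk of the genes, and are given as CPM, counts per library brought to a shared size. TMM factors were between 0.916 and 1.18 in the controls and at 1.19, 0.593, 1.07, 1.11 and 0.837 in ox-LDL libraries 1 to 5, so ox-LDL library 2 stood apart. Control library 5 stood apart from the other 4 controls in the serpin genes, as given below. Calls without this library or without ox-LDL library 2 are given where they changed for a gene whose fold change is printed. For the rest of the protease and inhibitor list only the number of calls is given. All 7 macrophage marker genes were detected, and their summed CPM, scaled by library size alone, was between 23070 and 42750 in the controls and between 12990 and 28180 after ox-LDL. The summed level of 8 neutrophil markers was between 19.5 and 45.0 CPM in the controls and between 24.3 and 92.4 CPM after ox-LDL, highest in ox-LDL library 2. In the T and NK cell list Cd3e and Ncr1 had at most 3 counts in every library, and the summed list reached 0.789 CPM in the controls and 0.499 CPM after ox-LDL.

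The genes Serpina3f, Serpina3g and Serpina3n lie on the plus strand of chromosome 12, in mm9 at positions 105452754 to 105459339, 105474455 to 105480149 and 105644939 to 105652539. They belong to a cluster of 14 Serpina3 genes and pseudogenes that spans 301606 bases, in which 15115 bases separate Serpina3f from Serpina3g. Their coding sequences matched at 87.0% of 744 aligned bases for Serpina3f and Serpina3g, at 84.9% of 1223 for Serpina3f and Serpina3n, and at 84.3% of 648 for Serpina3g and Serpina3n, whereas each of the 3 matched the Serpinb coding sequences at 47.6% to 52.6%. The coding sequence annotated for Serpina3g had 744 bases, beside 1335 for Serpina3f and 1254 for Serpina3n. The identities with Serpina3g and the stretches shown therefore cover only that part of the genes. The stretch of 90 coding bases in which the 3 genes differ most is shown first, since it is where reads can be assigned to 1 gene. Capitals mark the positions that are not the same in all 3, and 58 of the 90 positions are the same. The windows are chr12:105456424-105456513, chr12:105477253-105477342 and chr12:105649345-105649434, all on the plus strand and in coding exons.
Serpina3f: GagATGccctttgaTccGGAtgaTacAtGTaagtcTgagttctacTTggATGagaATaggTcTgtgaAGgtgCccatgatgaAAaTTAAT
Serpina3g: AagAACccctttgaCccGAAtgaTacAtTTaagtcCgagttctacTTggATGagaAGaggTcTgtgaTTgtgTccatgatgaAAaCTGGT
Serpina3n: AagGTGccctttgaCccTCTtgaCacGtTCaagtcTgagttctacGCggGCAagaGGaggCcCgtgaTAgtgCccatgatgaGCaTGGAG

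The opposite case is the longest coding run that Serpina3f and Serpina3g share, 56 bases at chr12:105457646-105457701 in Serpina3f and chr12:105478474-105478529 in Serpina3g, where a read that falls inside the run fits both genes.
Shared run: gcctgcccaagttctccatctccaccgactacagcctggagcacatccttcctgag
Over whole transcripts, 10.3% of the 50-base windows of Serpina3f were also found in transcripts of other genes. In Serpina3g 5.9% were found, counted whether or not further genes held them too. The share found in any other gene was 14.2% for Serpina3g and 6.9% for Serpina3n. With windows of 100 bases the shares were 3.25%, 3.21% and 0.2%. Serpina3g and Serpina3n shared a longer coding run, of 100 bases, and 2.53% of the 50-base windows of Serpina3n were also found in Serpina3g. Counts of the 3 genes are therefore uncertain in the part of each transcript that another also holds, and the low counts of Serpina3n most of all. How the deposited counts divided such reads is not given in the sources used here. The nearest copies had few reads of their own: Serpina3h had at most 4 counts in any library and Serpina3i at most 13, although 8.16% and 6.27% of the windows of Serpina3g were also found in them.

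Counts were near 0 in most controls for Serpina3f and Serpina3n, and low but detected in all controls for Serpina3g. In every ox-LDL library Serpina3f and Serpina3g had high counts. Serpina3f, a member of the group with no well-established target, had 0, 2, 2, 0 and 54 counts in control libraries 1 to 5 and 1100, 5237, 5078, 6546 and 7477 counts in ox-LDL libraries 1 to 5. Every ox-LDL library lay above every control, ox-LDL library 1 was the lowest of its group, and control library 5 held most of the control reads. The mean level was 0.503 ± 1.03 CPM (SD, n = 5) in the controls and 300.7 ± 166 CPM (SD, n = 5) after ox-LDL. The fitted log2 fold change was 9.16 (SE 1.26), with no test because this contrast chose the gene. Without control library 5 the other 4 controls had at most 2 counts each, and the ox-LDL level was at least 2084-fold higher than a floor of 3 counts per library.

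Serpina3g, an inhibitor known to act inside cells on lysosomal cathepsins, was detected in all controls at 41, 4, 14, 23 and 160 counts and reached 3178, 10940, 3776, 6818 and 15020 counts in ox-LDL libraries 1 to 5. The groups did not overlap, and the highest control, library 5, was far below the lowest ox-LDL library. Serpina3g rose from 2.24 ± 2.75 to 496.5 ± 390.3 CPM (SD, n = 5 per group), a log2 fold change of 7.79 (SE 1.05, adjusted p = 2.87e-04 by edgeR's quasi-likelihood test with Benjamini-Hochberg adjustment over 12654 genes). The log2 fold change was 8.89 without control library 5 (adjusted p = 1.97e-04).

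Serpina3n, a secreted serpin of the acute phase response and an inhibitor of leukocyte elastase and granzyme B, stayed at low counts in both groups. It had 0, 1, 3, 1 and 4 counts in the controls and 77, 15, 37, 65 and 31 counts after ox-LDL. No control reached the lowest ox-LDL library, but all controls together held 9 counts. The level rose from 0.0793 ± 0.0702 to 2.28 ± 0.899 CPM (SD, n = 5 per group), a log2 fold change of 4.70 (SE 0.56, adjusted p = 1.18e-04, edgeR). The ratio of summed counts, each divided by the summed TMM-scaled library sizes, was 28.9. Its exact 95% Poisson interval ran from 14.95 to 64.0, which covers counting error only and not reads shared with Serpina3g.

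The order of the ox-LDL libraries was not the same for the 3 genes. Serpina3f counts per Serpina3g count were 0.346, 0.479, 1.35, 0.960 and 0.498 in ox-LDL libraries 1 to 5, so Serpina3f exceeded Serpina3g in library 3 alone. In control library 5, the only control with more than 2 Serpina3f counts, the ratio was 0.338. Serpina3n was highest in ox-LDL library 1, in which Serpina3f and Serpina3g were lowest.

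Serpinb2, known as an inhibitor of urokinase that is kept largely inside the cell, lies on chromosome 1 at positions 109408000 to 109432055 on the plus strand in mm9. It had 55, 54, 79, 41 and 59 counts in the controls and 343, 844, 3246, 2416 and 2416 counts after ox-LDL. The controls were close together, whereas the ox-LDL libraries spread widely and library 1 was the lowest, still above every control. Serpinb2 rose from 2.68 ± 0.523 to 101.1 ± 58.3 CPM (SD, n = 5 per group), a log2 fold change of 5.23 (SE 0.55, adjusted p = 5.76e-05, edgeR). Serpinb10-ps, annotated as a polymorphic pseudogene, overlaps the gene on the same strand over 6476 bases. Of the 50-base windows of Serpinb2 transcripts, 10.4% were also found in transcripts of Serpinb10-ps. The row named Serpinb10 had at most 9 counts in any control and at most 1 in any ox-LDL library.

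Serpinb9, the inhibitor of granzyme B in cells that meet cytotoxic granules, lies on chromosome 13 at positions 33095119 to 33109826 on the plus strand. Its counts were 233, 330, 328, 213 and 257 in the controls and 3631, 993, 7101, 6811 and 2546 after ox-LDL. Again the groups did not overlap, and ox-LDL library 2 was the lowest of the treated libraries. Serpinb9 rose from 12.6 ± 1.51 to 213 ± 116 CPM (SD, n = 5 per group), a log2 fold change of 4.08 (SE 0.38, adjusted p = 2.95e-05, edgeR). Of its 50-base windows 0.38% were also found in another gene, the neighbour Serpinb9b at a distance of 9458 bases.

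**Figure D1:**
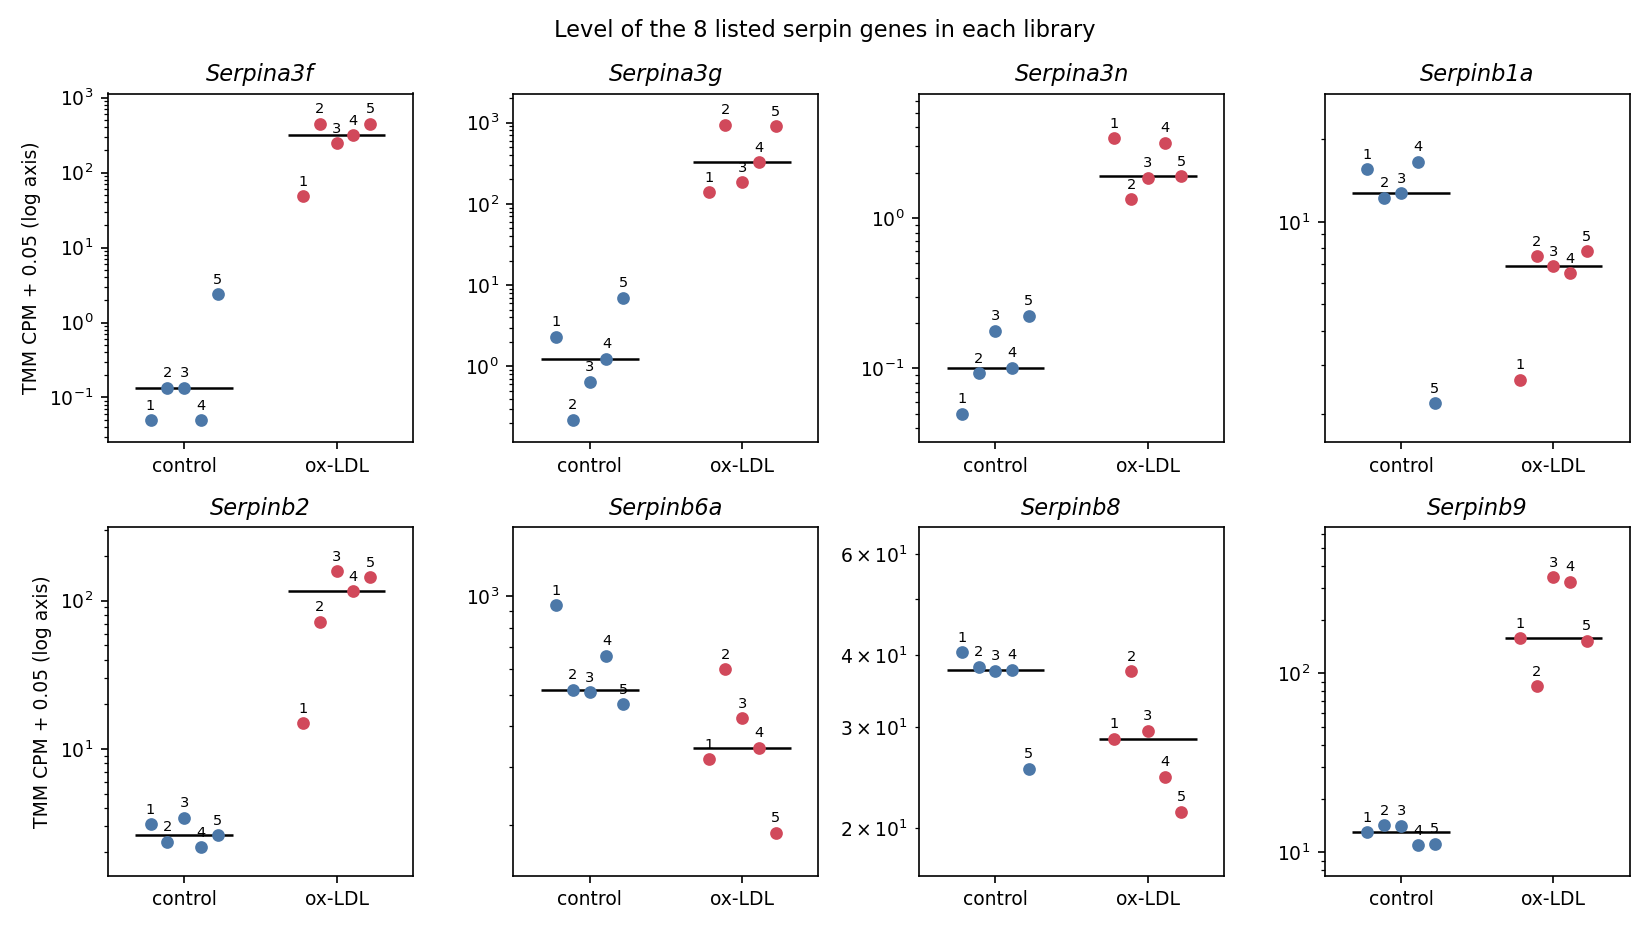
TMM-scaled level of the 8 listed genes in each library, as CPM plus 0.05 on a log axis that differs between panels, with the replicate number above each point and a line at the group median. For Serpina3f, Serpina3g, Serpina3n, Serpinb2 and Serpinb9 all ox-LDL points lie above all control points, and for Serpinb1a, Serpinb6a and Serpinb8 the groups overlap.

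The remaining 3 genes code for inhibitors that were expressed in the control group, as Serpinb2 and Serpinb9 were too. Serpinb1a, an inhibitor of neutrophil elastase and cathepsin G, had 281, 285, 296, 321 and 49 counts in the controls and 60, 87, 140, 135 and 130 counts after ox-LDL. Controls 1 to 4 lay above every ox-LDL library, and control library 5 lay below all of them. The level was 11.8 ± 5.72 CPM in the controls and 6.22 ± 2.08 CPM after ox-LDL (SD, n = 5 per group), and the log2 difference of -0.93 (SE 0.46) did not pass the test (adjusted p = 0.156, edgeR). The value was -1.20 without control library 5 (adjusted p = 0.0124), and -1.48 without control library 5 and ox-LDL libraries 2 and 5 (adjusted p = 0.00402), which is past the threshold.

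Serpinb6a, known as an inhibitor of cathepsin G, was by far the most abundant of the 8 genes in the controls. It had 16999, 12087, 11906, 12777 and 10769 counts in the controls and 7274, 6984, 8691, 7182 and 3161 counts after ox-LDL. In unscaled counts every ox-LDL library was below every control, but after TMM scaling ox-LDL library 2, with the smallest factor, lay at 598 CPM and within the control range of 468 to 940.3 CPM. Means were 619 ± 194 and 374 ± 151 CPM (SD, n = 5 per group), with a log2 difference of -0.73 (SE 0.32) and an adjusted p of 0.116 in edgeR. The difference was -1.0 without ox-LDL library 2 (adjusted p = 0.0132). Serpinb6a lies on the minus strand of chromosome 13 at positions 34009787 to 34094663, and Nqo2 overlaps it on the opposite strand over 23807 bases. On either strand 12.5% of its 50-base windows were found in Nqo2 transcripts, and without strand in the counting, reads from there cannot be told apart.

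Serpinb8, an inhibitor of furin, had 730, 892, 877, 732 and 584 counts in the controls and 657, 438, 605, 513 and 357 counts after ox-LDL. Scaled by TMM, control library 5 lay inside the ox-LDL range and the other 4 controls lay above it, by little for ox-LDL library 2. The level was 35.8 ± 5.96 CPM in the controls and 28.3 ± 6.10 CPM after ox-LDL (SD, n = 5 per group), with a log2 difference of -0.34 (SE 0.19, adjusted p = 0.216, edgeR). Without control library 5 and ox-LDL libraries 2 and 5 the difference was -0.53 (adjusted p = 0.00934), past the threshold. The median log2 fold change of all genes was 0.10 with TMM and -0.09 with library size alone. Relative to that median, Serpinb1a, Serpinb6a and Serpinb8 were at -1.02, -0.82 and -0.44 with TMM and at -1.03, -0.82 and -0.43 with library size alone.

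Of the 7 genes with a test, 4 rose and 0 fell at an adjusted p below 0.01, beside 9.4% of all 12654 genes that rose and 5.35% that fell. No overlap with every ox-LDL library above was seen in 4 of these 7, beside 11.6% of all genes, and no overlap with every control above in 0, beside 9.11%. The 7 genes were named with earlier results of these data known, so the counts describe them. Among serpins outside the list, 29 were considered, 9 passed the low-count filter, 5 rose and 0 fell, with a median log2 fold change of 1.72 beside 0.10 over all genes. Of the 36 serpins other than Serpina3f, 16 passed the filter, 9 were called higher and 0 lower. At an unadjusted p below 0.05 edgeR had 2 of these 16 lower, Serpinb6a and Serpinb12, beside 1996 of all 12654 genes. DESeq2 called 1 lower at its adjusted p, Serpinb12. Serpina3f and Serpina3n passed the filter through the ox-LDL group, since at most 1 control library of each was over its limit of 0.506 CPM. Serpina3g, Serpinb1b and Serping1 had 4, 4 and 3 control libraries over the limit, fewer than the 5 libraries that the filter asks for. They too passed only with ox-LDL libraries, and with Serpina3n they are among the 9 called higher. Among the 10 serpins over the limit in all 10 libraries, 5 rose and 0 fell.

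Serpinb9b, the neighbour of Serpinb9, rose from a mean of 2.45 to 25.9 CPM with a log2 fold change of 3.41 (SE 0.54, adjusted p = 7.99e-04). Serping1, the inhibitor of the first complement proteases, rose from 0.629 to 6.03 CPM with a log2 fold change of 3.25 (SE 0.44, adjusted p = 2.65e-04). Serpinb1b, a close relative of Serpinb1a, rose from 1.07 to 4.16 CPM (log2 fold change 1.96, SE 0.36, adjusted p = 0.00189). In these 3 genes every ox-LDL library lay above every control. Serpinf1, a secreted serpin without inhibitory activity, and Serpinh1, the collagen chaperone of the endoplasmic reticulum, had log2 fold changes of 1.73 and 1.72 with adjusted p of 0.00518 and 0.0099 in edgeR. Both calls ended under other settings, in 11 of 23 alternatives for Serpinf1 and in 15 of 23 for Serpinh1. Adjusted p was highest with limma on log2(FPKM + 0.1), at 0.0447 for Serpinf1 and 0.0448 for Serpinh1. Without control library 5 it was 0.0108 for Serpinh1 in edgeR, and the groups overlapped for Serpinh1.

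The other 4 serpins were not called. Serpini1, an inhibitor of tissue plasminogen activator known from neurons, had a log2 difference of 1.38 (SE 0.42, adjusted p = 0.029), Serpinb6b of 0.11 (SE 0.30, adjusted p = 0.838), Serpinb1c of -0.79 (SE 0.39, adjusted p = 0.151) and Serpinb12 of -1.90 (SE 0.61, adjusted p = 0.0384), all in edgeR. Serpini1 was called higher with DESeq2 (adjusted p = 0.00556), in edgeR without ox-LDL library 5 (1.6, adjusted p = 0.00427) and without control 5 and ox-LDL 2 and 5 together (adjusted p = 0.00726). Serpinb12 had 62, 96, 121, 40 and 8 counts in the controls and 31, 4, 16, 23 and 6 counts after ox-LDL. Controls 1 to 4 lay above every ox-LDL library and control library 5 within them, the same arrangement as for the first 4 controls of Serpinb1a, and without control library 5 Serpinb12 was called lower (log2 fold change -2.19, adjusted p = 0.00526). The 20 serpin rows that did not pass the filter had at most 52 counts in any library.

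**Figure D2:**
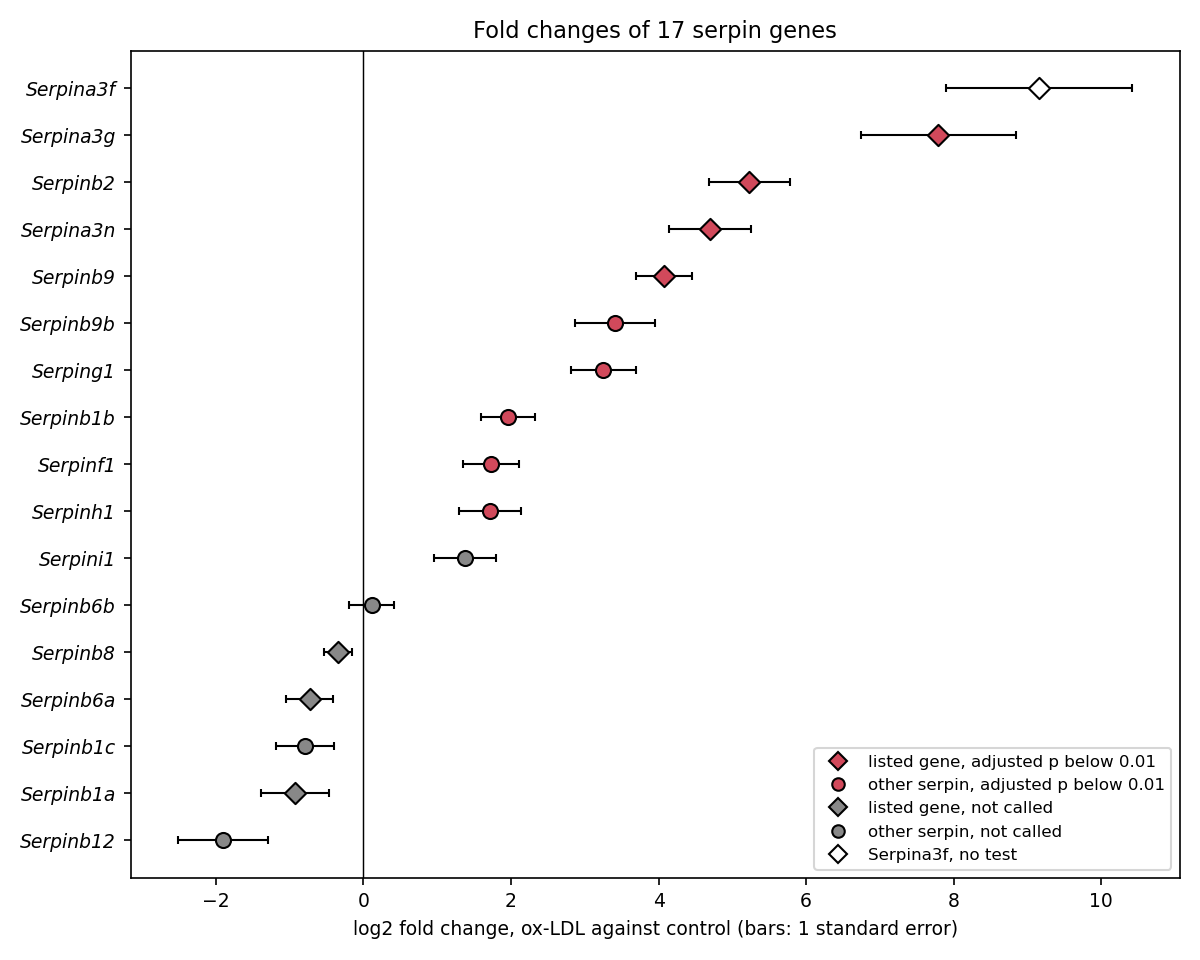
Log2 fold change of ox-LDL against control libraries (x axis, edgeR) with 1 standard error for 17 serpin genes that passed the filter, the 8 listed genes as diamonds and the others as circles. Red marks an adjusted p below 0.01, grey a gene that was not called and white Serpina3f, which has no test, and values run from -1.90 for Serpinb12 to 9.16 for Serpina3f.

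Levels between genes were compared per transcript length, as deposited FPKM. In the controls Serpinb6a led with a median of 451.5 FPKM (404.8 to 645.6) and did not overlap the next gene, Serpinb8, at 14.2 FPKM (11.4 to 17.5). Serpinb1a (median 9.38 FPKM, 1.67 to 10.5) lay below Serpinb8 in every library, and its range took in that of Serpinb9 (median 5.42 FPKM, 4.56 to 7.07). Serpinb2 was at 1.5 FPKM (1.12 to 2.15), Serpina3g at 0.58 FPKM (0.09 to 3.87), Serpina3f at 0.05 FPKM (0 to 1.3) and Serpina3n at 0.03 FPKM (0 to 0.1), and the ranges of the last 3 overlapped.

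After ox-LDL the order by median was Serpinb6a at 285.1 FPKM (119 to 342), Serpina3g at 185.4 FPKM (83.8 to 377.2), Serpina3f at 124.9 FPKM (26.9 to 177), Serpinb9 at 82.4 FPKM (22.1 to 163) and Serpinb2 at 65.2 FPKM (9.62 to 91.5). Each of these overlapped its neighbour in the order, so the ranks are not separated by the spread over libraries. Serpinb8 at 11.01 FPKM (8.03 to 13.6) and Serpinb1a at 4.5 FPKM (2.02 to 4.93) did not overlap each other. Serpina3n at 0.99 FPKM (0.39 to 2.04) remained the lowest of the 8.

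The make-up of the serpin transcripts differed with these changes. Serpinb6a held between 88.6% and 93.05% of the summed FPKM of the 37 serpin genes in the controls and 51.6%, 35.4%, 37.6%, 30.5% and 14.2% in ox-LDL libraries 1 to 5. Serpina3g held 15.2%, 38.4%, 11%, 19.8% and 44.8% after ox-LDL, against at most 0.869% in a control. Serpina3f held 4.87%, 16.7%, 13.7%, 17.4% and 21.0%, and Serpinb9 held 14.9%, 2.95%, 18.0%, 16.9% and 6.66%. The shares of Serpina3g and Serpinb9 thus ran in different directions over the libraries: ox-LDL libraries 2 and 5 had the highest Serpina3g and the lowest Serpinb9 shares. Shares of 1 sum are tied, since a larger share lowers the others. In TMM CPM, libraries 2 and 5 were also highest for Serpina3g (936.7 and 897.1) and lowest for Serpinb9 (85.03 and 152.1). For Serpinb9, library 1 was close to library 5, at 157.9 CPM. The summed FPKM was between 445.3 and 693.9 in the controls and between 552.7 and 936.4 after ox-LDL.

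**Figure D3:**
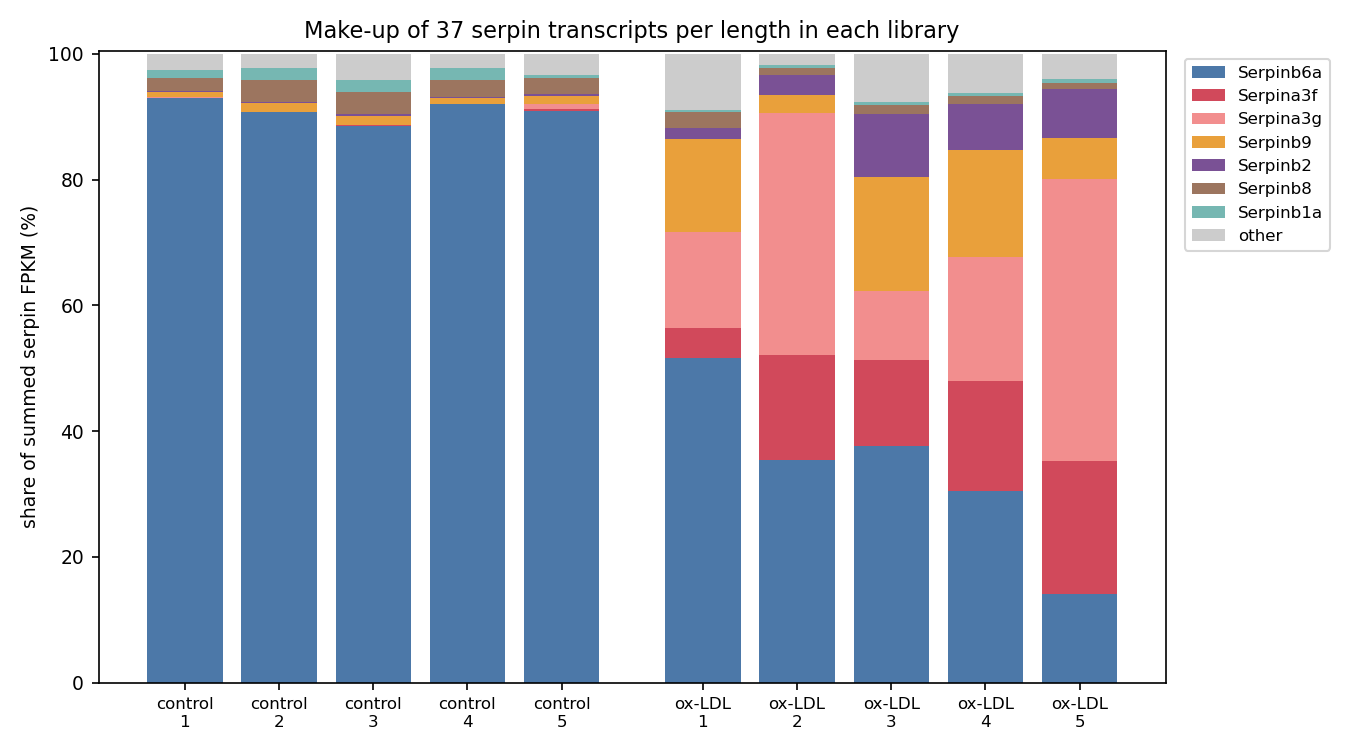
Share of the summed FPKM of 37 serpin genes (y axis, percent) held by each named gene in the 10 libraries (x axis, group and replicate), with the remaining serpins as other. Serpinb6a takes 88.6% or more of every control bar and 51.6% or less of every ox-LDL bar, where Serpina3g, Serpina3f, Serpinb9 and Serpinb2 fill most of the rest.

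Libraries of the same group also differed from each other. Control library 5 was above the other 4 controls for Serpina3f, Serpina3g, Serpina3n, Serpinf1 and Serping1 in TMM CPM, and below them for Serpinb1a, Serpinb6a, Serpinb8, Serpinb1b, Serpinb6b, Serpinb12 and Serpini1. Its counts of Serpina3f and Serpina3g were 0.722% and 1.06% of those in ox-LDL library 5, and the part that this library plays in the group difference was measured only by leaving it out. In ox-LDL library 1, Serpina3f was 2.70 and Serpinb2 2.91 below the group median on the log2(CPM + 0.5) scale, whereas Serpina3n was above its own. Macrophage and neutrophil marker sums of control library 5 were 24570 and 36.2 CPM, both inside the range of the other controls. It was the highest control for mast cell and eosinophil markers (8.11 CPM) and for B cell markers (1.502 CPM), and the lowest for resident peritoneal macrophage markers (2.002 CPM). The part of these in its serpin values was not tested.

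**Figure D4:**
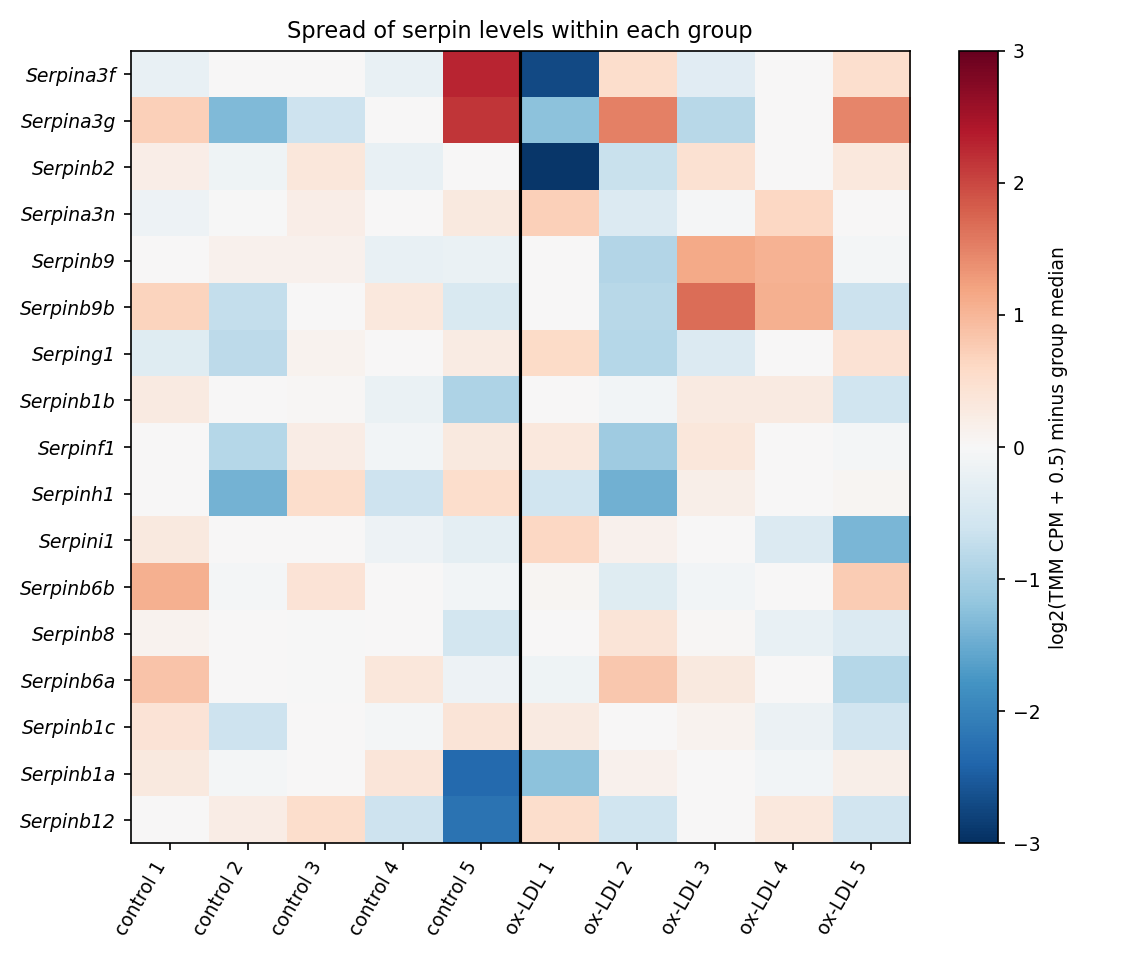
Log2(TMM CPM + 0.5) of 17 serpins (rows) in each library (columns) minus the median of the library's own group, red above and blue below, with a line between the groups. Control library 5 stands 2.28 above the median for Serpina3f and 2.32 below it for Serpinb1a, and ox-LDL library 1 stands 2.91 below it for Serpinb2.

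The proteases that serpins act on, and inhibitors of other families, were taken from a list of 51 genes, of which 48 had a row and 26 passed the filter. Of these 2 rose and 1 fell, beside 9.4% and 5.35% of all genes, with a median log2 fold change of 0.67 beside 0.10. Both genes that rose are inhibitors: Cst7, a cystatin that acts on lysosomal cathepsins, was between 0.0428 and 0.478 CPM in the controls and between 23.6 and 39.8 CPM after ox-LDL (log2 fold change 7.09, SE 0.41, adjusted p = 2.39e-06, edgeR). Slpi, a secreted inhibitor of neutrophil elastase, was between 12.1 and 48.0 CPM in the controls and between 88.5 and 593 CPM after ox-LDL (log2 fold change 3.89, SE 0.54, adjusted p = 3.36e-04, edgeR). In neither gene did the groups overlap, and Cst7 passed the filter through the ox-LDL group, since every control lay below the limit of 0.506 CPM. Ctso, a papain-like cathepsin, fell from 67.3 ± 10.98 to 32.9 ± 9.73 CPM (SD, n = 5 per group) with a log2 fold change of -1.03 (SE 0.22, adjusted p = 0.00469, edgeR), a call that ended in 7 of 23 alternatives.

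Proteases of neutrophils and of cytotoxic cells were near the detection limit. Elane and Ctsg, the neutrophil elastase and cathepsin G genes, had at most 1 count in any library, Prtn3 at most 12 and Gzmb at most 12, and all 3 neutrophil serine proteases and all 5 granzyme and perforin genes were below the filter. In the plasminogen system 3 genes were tested and none was called at the threshold: Plau, the gene of urokinase, had a log2 difference of 0.83 (adjusted p = 0.0836), Plaur, its receptor, of 0.79 (adjusted p = 0.135) and Plat, the tissue activator, of 1.78 (adjusted p = 0.022), all in edgeR. Plat was called higher with DESeq2 (log2 fold change 1.77, adjusted p = 0.00292) and in edgeR without ox-LDL library 2 (1.95, adjusted p = 0.00574). At an unadjusted p below 0.05 in edgeR none of these 3 was lower, beside 1996 of all 12654 genes. Furin, the target of Serpinb8, was between 17.6 and 53.9 CPM in the controls and between 34.3 and 120.6 CPM after ox-LDL (log2 difference 1.06, adjusted p = 0.0578, edgeR). Among 10 papain-like cathepsins, all above the filter, Ctso was the only one called, and the abundant Ctsb and Ctss had log2 differences of -0.01 and -0.02. Among the mast cell proteases Cma1 alone passed the filter (log2 difference -1.39, adjusted p = 0.193, edgeR), and summed mast cell and eosinophil markers were between 2.91 and 8.11 CPM in the controls and between 0.678 and 2.0 CPM after ox-LDL, a part that was not tested. Of the coagulation genes F10 was nearest to the threshold (log2 difference 1.66, adjusted p = 0.0101, edgeR). It was called higher in 6 of 23 alternatives. Among these were DESeq2 (adjusted p = 3.99e-04) and edgeR without ox-LDL library 1 (1.89, adjusted p = 0.00181) or without ox-LDL library 2 (1.69, adjusted p = 0.0072).

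The 250 bases before the start of the 5 genes with no overlap between groups are shown because every ox-LDL library lay above every control for each of them. They were read from RefSeq for GRCm38.p6, a later build than that of the counts, in which 7 of the 8 genes were matched; where RefSeq lists several starts the first is shown. Searched on both strands were GAS (TTCNNNGAA, the site class of STAT factors), the ISRE core (GAAANNGAA, of interferon-responsive factors), AP-1 (TGANTCA), C/EBP (TTGCNNAA) and NF-kB by its name, and capitals mark every match. The windows are chr12:104214294-104214543, chr12:104235897-104236146, chr12:104406458-104406707, chr1:107511173-107511422 and chr13:33004291-33004540, all on the plus strand.
Serpina3f: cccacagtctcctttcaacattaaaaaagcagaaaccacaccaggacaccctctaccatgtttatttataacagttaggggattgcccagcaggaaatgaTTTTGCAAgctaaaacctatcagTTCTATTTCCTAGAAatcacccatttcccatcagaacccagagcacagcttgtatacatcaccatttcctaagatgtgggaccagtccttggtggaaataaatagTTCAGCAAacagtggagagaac
Serpina3g: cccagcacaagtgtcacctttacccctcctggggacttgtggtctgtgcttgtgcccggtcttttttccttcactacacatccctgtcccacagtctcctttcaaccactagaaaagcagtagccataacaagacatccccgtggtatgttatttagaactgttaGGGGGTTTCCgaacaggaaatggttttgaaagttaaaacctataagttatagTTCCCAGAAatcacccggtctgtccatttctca
Serpina3n: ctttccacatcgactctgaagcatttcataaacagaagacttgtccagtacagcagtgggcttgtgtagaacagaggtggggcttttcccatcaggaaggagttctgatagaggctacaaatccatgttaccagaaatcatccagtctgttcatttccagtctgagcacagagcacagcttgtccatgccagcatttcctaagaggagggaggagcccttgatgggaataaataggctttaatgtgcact
Serpinb2: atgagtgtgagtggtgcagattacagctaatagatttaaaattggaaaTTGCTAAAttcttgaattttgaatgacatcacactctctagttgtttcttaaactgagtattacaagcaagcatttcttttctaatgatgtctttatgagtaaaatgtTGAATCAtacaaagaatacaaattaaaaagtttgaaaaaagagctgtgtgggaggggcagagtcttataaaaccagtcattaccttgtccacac
Serpinb9: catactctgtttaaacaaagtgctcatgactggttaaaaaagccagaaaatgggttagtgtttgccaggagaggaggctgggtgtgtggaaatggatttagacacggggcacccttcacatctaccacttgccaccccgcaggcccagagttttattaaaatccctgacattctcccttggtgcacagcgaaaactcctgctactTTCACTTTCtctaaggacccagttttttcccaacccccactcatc

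In Serpina3f a GAS match began 121 bases and an ISRE core match 127 bases before the start, overlapping each other, and C/EBP matches began at 150 and 22 bases. Serpina3g had a GAS match at 33 bases and an NF-kB match at 85 bases, Serpina3n had no match to any of the 5, Serpinb2 had AP-1 at 94 and C/EBP at 202 bases, and Serpinb9 had an ISRE core match at 45 bases. Over 32841 promoters of the same length, 7.0% held a GAS match, 7.1% an ISRE core, 6.8% AP-1, 9.6% C/EBP and 7.3% NF-kB. Matches also lay before genes that were not called, since Serpinb6a had overlapping GAS and ISRE core matches at 77 and 83 bases, and Serpinb8 had AP-1 at 23 bases. At a second listed start Serpinb2 also had a GAS match, at 77 bases. These matches are letters in a window and no binding was measured. The Serpina3f and Serpina3g windows matched at 76.5% of 162 aligned bases, and the Serpina3n window matched them at 64.1% of 234 and 61.9% of 160.

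Genes with the most similar profile were found by the root-mean-square difference of log2(CPM + 0.5), centred per gene, over the 10 libraries, among genes with a mean of at least 10 CPM. Nearest to Serpina3f were Tgtp2 (0.563), Gbp5 (0.701) and Inhba (0.707), where the median over 7503 genes was 4.27, and nearest to Serpina3g were Tgtp2 (0.612), Iigp1 (0.703) and Gbp6 (0.815), with a median of 3.96. Tgtp2 has a near-identical copy, Tgtp1, so its counts are uncertain too. Serpinb2 was nearest to Clmp (0.45), Rbfox1 (0.458) and Tnf (0.467), Serpinb9 to Slc25a37 (0.319), Met (0.357) and Src (0.362), and Serpina3n to Parp14 (0.236), Gm1966 (0.292) and Abca1 (0.304). Serpinb1a was nearest to Clec5a, Nfkbid and Anxa3 (0.547 to 0.549), Serpinb6a to Hsd17b11, Iftap and Mettl21a (0.197 to 0.217), and Serpinb8 to Zfp386, Gm14326 and Idh3a (0.096 to 0.099). Profiles that hold a large group difference are alike in that difference, so the measure describes the shared pattern over these libraries. The added 0.5 CPM exceeds every control value of Serpina3n (at most 0.174 CPM) and most of those of Serpina3f. It shrinks their group difference, so the genes nearest to them need not share the fitted fold change.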

How the data were processed

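Per the labels, RNA of thioglycollate-elicited peritoneal macrophages was sequenced on the BGISEQ-500. The authors' tools were HISAT2 2.0.5 on the build mm9, SAMtools 1.4 and StringTie 1.3.3.13, and they deposited estimated counts per gene, of which 13.6% were not whole. The counting step, its annotation and its use of strand are not given in the sources used here. Values scaled by length and library, deposited by the authors with no unit named, were read as FPKM, because the length they imply for a gene hardly varied over libraries (median coefficient of variation 0.81% over 4065 genes).

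Conditions came from the sample labels, with 5 biological replicates per group, and p-values measure the spread between these libraries. Counts were rounded, rows of circular RNAs (9788 of 39488) left out, and 12654 genes kept by filterByExpr. Genes were tested with edgeR 4.0.16 (TMM, robust quasi-likelihood, Benjamini-Hochberg, called at adjusted p below 0.01) in R 4.3.3. On simulated data over the 12654 genes it recovered 179 of 200 changed genes with 2 false calls, and DESeq2 1.42.0 recovered 192 with 15. The changed genes were drawn from those at higher levels and given large changes, so recovery of low or weakly changed genes was not measured. Coding and transcript sequences came from mm9 with GENCODE, aligned with mafft 7.526, and gene names and promoters from RefSeq for GRCm38.p6. The members and lists were chosen with earlier results of these data known. Named genes were the 8 members, the other reported serpins above the filter, the genes of the list and the 3 nearest profiles per member. A library was tested for standing apart by Dixon's ratio. The alternatives included limma 3.58.1. Protein sequences were not used here, and the values of 1 serpin gene are not reported here and enter no serpin count. Leaving out 3 libraries together and removing a trend on gene length were chosen after seeing the data.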

Additional observations from a re-analysis of the deposited data

Results flagged for a closer look

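Among 17 serpins in 2 groups, 34 sets of 5 libraries were examined for a highest or lowest library whose gap to the next took more than 0.71 of the whole range in TMM CPM. In 3 sets this was so, where chance gives about 1.7, and the genes are not independent. In control library 5, Serpina3f was at 2.35 CPM with the next control at 0.0856 CPM (gap 0.964 of the range). The same library was the lowest control for Serpinb8, at 25.4 CPM with the next at 37.5 CPM (0.81). Among the ox-LDL libraries, Serpinb1a was lowest in library 1, at 2.61 CPM with the next at 6.46 CPM (0.747).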

How the results depend on the processing

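Serpina3g, Serpina3n, Serpinb2 and Serpinb9 stayed higher at adjusted p below 0.01 in every alternative that gave a value (20 to 23 per gene), with log2 fold changes of 6.55 to 8.89, 4.42 to 5.37, 4.00 to 5.51 and 3.55 to 4.36. The values of Serpina3f, 9.16 as reported, were 11.06 with limma-voom, 6.45 with limma on log2(FPKM + 1), 11.85 with 3 libraries left out together (control 5, ox-LDL 2 and 5) and 8.85 to 12.46 with 1 library left out. With those 3 libraries left out Serpinb1a (-1.48) and Serpinb8 (-0.53) passed the threshold, and Serpinb6a did not under any alternative (-1.0 to -0.53). Serpinb6b changed sign with upper-quartile factors (-0.06), library size alone (-0.03), limma on log2(FPKM + 1) (-0.04) and log2(FPKM + 0.1) (-0.06), without ox-LDL library 5 (-0.14, and -0.14 to 0.38 over all single libraries left out) and with 3 libraries left out (-0.19). Serpins called higher, Serpina3f not counted, numbered 9, and 4 of 10 tested when 10 counts were required in every library. That filter removed Serpina3g, Serpina3n, Serpinb1b and Serping1, and Serpinh1 lost its call (adjusted p = 0.0107). With 1 library left out they numbered 7 to 9, and 6 with a log2 fold change above 2 also required. Serpins called lower numbered 0, and 1 with DESeq2, 1 at adjusted p below 0.05, 0 to 1 with 1 library left out and 3 with 3 libraries left out. In the protease and inhibitor list the 2 higher became 6 with DESeq2, 6 with the length trend removed, 6 at adjusted p below 0.05, 4 with no filter, 1 with 10 counts in every library and 2 to 4 with 1 library left out. The 1 lower became 0 with library size alone, 0 with the fold cutoff, 3 with 3 libraries left out and 0 to 2 with 1 library left out: 0 without control 1, 2, 3 or 4 or ox-LDL 3 or 4, and 2 without ox-LDL 2. The cause of these changes was not tested. Serpina3n had too low FPKM for limma on log2(FPKM + 1) and log2(FPKM + 0.1), but had a value with limma-voom.

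Replicate numbers are shared between the groups, but correlations of same-numbered libraries were 0.024, -0.272, 0.443, -0.285 and 0.411, so the numbers were not taken as pairs. With the replicate block 9 serpins were higher and 0 lower, and no call of the 7 tested members changed.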
